A study of Mus musculus with 11 samples.

Results

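The genes described here are 10 regulators of the G1 phase of the cell cycle, measured in mouse liver after acetaminophen (APAP) injury. They are the D-type cyclins Ccnd1, Ccnd2 and Ccnd3, the E-type cyclins Ccne1 and Ccne2, the cyclin-dependent kinases Cdk2, Cdk4 and Cdk6, and the inhibitors Cdkn1b (p27) and Cdkn2c (p18). They were taken by symbol from the 31053 genes of the deposited feature list, and all 10 were found and passed the filter on low counts. No threshold on their measured values was used, but the list was chosen with earlier results of these data known. APAP, an analgesic that kills the pericentral hepatocytes that metabolise it when given in excess, was used in this study to follow liver regeneration by spatial transcriptomics (Visium), in which a frozen liver section lies on an array of barcoded spots that each catch RNA from several cells. There were 11 sections, 3 of uninjured liver (0 h, sections 2, 3 and 4), 2 taken 24 h after APAP (A and B), 2 taken at 36 h (A and B) and 4 taken at 48 h (A to D). The injured sections carry the name POD in the labels and APAP in the series' description, and the 0 h sections are labelled healthy or uninjured. All mice were adult C57BL/6JCrl animals with no engineered allele named, male unless stated otherwise, and those given APAP received it by intraperitoneal injection after a fast. The methods give a single mouse per time point for this assay. The sections of a time point are therefore slices of 1 liver as far as the methods say, p-values measure the spread between sections, and time after APAP cannot be told apart from the mouse.

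In a resting hepatocyte the retinoblastoma protein family holds E2F transcription factors inactive. D-type cyclins, which are made in response to growth factors, pair with CDK4 or CDK6 and begin to phosphorylate RB. E2F then switches on E-type cyclins, which pair with CDK2, complete the phosphorylation of RB and commit the cell to DNA synthesis. The INK4 protein p18 binds CDK4 and CDK6 and keeps them from D-type cyclins, whereas p27 binds assembled cyclin and kinase complexes, blocking those with CDK2 and helping D-type cyclins to assemble. The adult liver is almost wholly in G0, and cyclin D1 is the textbook marker of hepatocytes that leave it.

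A spot passed when it held at least 800 genes and at most 20% mitochondrial counts, which left 25136 of 25323 spots over tissue, 1490 to 3466 per section. These held 31292663 to 67045372 unique molecular identifier (UMI) counts per section, with medians of 15168.5 to 29950 per spot. Levels are given as counts per 1000000 UMIs (CPM) of a whole section after TMM scaling, a correction for differences in RNA composition. The scaling factors of the 3 uninjured sections, 0.783 to 0.811, lay apart from those of the 8 injured sections, 0.983 to 1.17. The hepatocyte markers Alb, Ttr, Hp and 5 others together held 127277 to 132435 CPM at 0 h and 87158.8 to 103736 CPM at 48 h, the highest of the 8 marker sums in every section. Between the same times the summed level of 9 macrophage markers went from 633 to 710 up to 980 to 1838 CPM, that of 8 mesenchymal markers from 265 to 306 up to 708 to 1529 CPM, and that of 6 neutrophil markers from 3.54 to 9.83 up to 37.6 to 116 CPM. No section overlapped between 0 h and 48 h for any of these 4 sums, and at 48 h 7 of 8 mesenchymal, 5 of 9 macrophage and 6 of 6 neutrophil markers singly lay above every 0 h section in all 4 sections, as did 1 of 8 hepatocyte, 1 of 5 cholangiocyte, 1 of 8 endothelial, 0 of 8 lymphocyte and 0 of 4 red blood cell markers and 27.9% of all genes tested. No marker was at 0 in any section. In sections of tissue, more cells that hold a transcript and more transcript per cell cannot be told apart.

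All 10 genes are placed here on GRCm38, the build to which the reads were aligned (mm10). Ccnd1 lies on the minus strand of chr7:144929931-144939925, Ccnd2 on the minus strand of chr6:127125162-127152193 and Ccnd3 on the plus strand of chr17:47505051-47599691. Ccne1 occupies chr7:38097984-38107534 on the minus strand and Ccne2 chr4:11191351-11204779 on the plus strand. The kinases are Cdk2 at chr10:128697939-128705031 on the minus strand, Cdk4 at chr10:127063534-127067920 on the plus strand and Cdk6 at chr5:3341485-3531008 on the plus strand. The inhibitors are Cdkn1b at chr6:134920401-134925513 on the plus strand and Cdkn2c at chr4:109660876-109667189 on the minus strand. Annotated genes on the opposite strand overlap 7 of them, among them Bysl in Ccnd3, Ints8 in Ccne2, Pmel in Cdk2 and Tspan31 in Cdk4. Whether counting used the strand was not given in the sources used here.

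The promoters of the 3 kinases are shown because the kinases first passed the test at different times, and because 2 well-known motifs of this pathway were found unevenly in them. Each is the RefSeq promoter on GRCm38.p6, running 5′ to 3′ on the gene's strand from 250 bases before the start site to 50 after it. Capitals mark the E-box CACGTG, the core bound by MYC, or an E2F word (TTTCGCGC, TTTGGCGC, TTTCCCGC or TTTGCCGC, searched on both strands).
Cdk4, chr10:127063285-127063584, plus strand: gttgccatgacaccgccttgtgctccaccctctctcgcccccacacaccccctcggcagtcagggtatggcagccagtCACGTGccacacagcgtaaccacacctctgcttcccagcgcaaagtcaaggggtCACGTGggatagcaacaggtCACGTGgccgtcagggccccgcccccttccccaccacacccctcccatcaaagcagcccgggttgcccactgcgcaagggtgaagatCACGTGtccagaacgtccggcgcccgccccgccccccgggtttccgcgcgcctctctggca
Cdk6, chr5:3343643-3343942, plus strand: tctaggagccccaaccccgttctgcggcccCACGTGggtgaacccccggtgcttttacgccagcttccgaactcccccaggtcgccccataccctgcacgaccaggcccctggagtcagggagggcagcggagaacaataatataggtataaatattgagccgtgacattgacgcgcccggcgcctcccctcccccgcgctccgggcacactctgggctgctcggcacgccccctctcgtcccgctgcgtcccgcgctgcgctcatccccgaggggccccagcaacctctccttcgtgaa
Cdk2, chr10:128705002-128705301, minus strand: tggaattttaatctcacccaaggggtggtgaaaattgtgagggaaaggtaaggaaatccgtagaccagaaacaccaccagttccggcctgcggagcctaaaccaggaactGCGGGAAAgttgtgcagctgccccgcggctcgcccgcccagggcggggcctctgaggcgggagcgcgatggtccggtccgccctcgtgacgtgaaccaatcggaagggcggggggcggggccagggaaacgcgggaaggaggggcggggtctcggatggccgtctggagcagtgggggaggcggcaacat
The Cdk4 promoter held 4 E-boxes, 172, 118, 98 and 11 bases before the start site, the Cdk6 promoter 1 at 220 bases before it, and the Cdk2 promoter none but 1 E2F word (GCGGGAAA) 140 bases before it. Across all 32851 promoters of the same length, 7.15% held an E-box, 0.0244% (8 promoters) held 4 or more, and 2.26% held one of the E2F words. The table held 9 promoters for 7 of the 10 genes (2 each for Cdkn2c and Ccnd3), of which the only other match was an E-box 34 bases after the start site of the second Cdkn2c promoter. Ccnd1, Ccnd2 and Ccne2 had no entry. A match describes letters and not a bound site.

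The first question was which G1 regulators changed after injury, and when. At 24 h, 2 of the 10 genes had risen against 0 h (Ccne1 and Cdk4) and 1 had fallen (Cdkn2c), where 41.7% of all 14821 genes tested passed the same threshold, an adjusted p under 0.05 over all genes (23.1% higher, 18.6% lower). At 36 h, 4 had risen (Ccne1, Ccne2, Cdk4 and Cdk6) and 0 had fallen, against 29.2% of all genes (16.8% higher). At 48 h, 7 had risen (Ccnd1, Ccne1, Ccne2, Cdk2, Cdk4, Cdk6 and Cdkn2c) and 0 had fallen, against 44.2% of all genes (23.3% higher). The median log2 fold change of the 10 genes at 48 h was 0.69, beside 0.01 over all genes tested. Over either direction the counts at 24 and 36 h therefore lay near the background. In the upward direction the 24 h count lay near it, and those at 36 and 48 h lay above it. The 3 comparisons share the 0 h sections. Of all genes tested, 37%, 29.8% and 27.9% had every section of 24, 36 and 48 h above every 0 h section. The non-overlaps given below for single genes stand beside these shares.

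**Figure D1:**
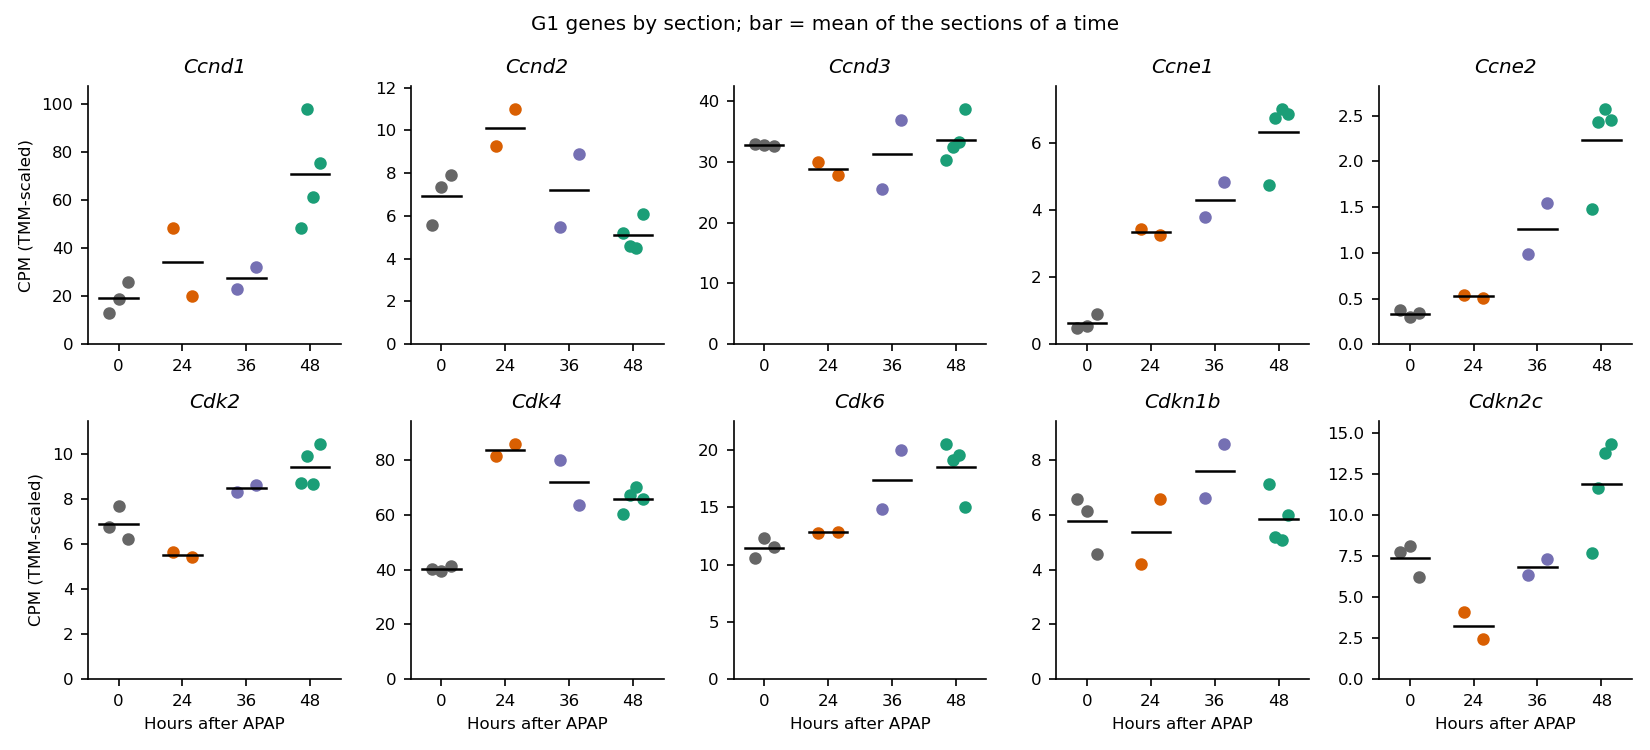
Level of each of the 10 G1 genes in CPM (linear vertical axes starting at 0) against time after APAP, with 1 point per section and a bar at the mean of each time point. Ccne1 is at 0.904 CPM or less in every 0 h section and at 3.25 CPM or more in every injured section, Cdk4 is highest at 24 h, and Ccnd1 separates from 0 h only at 48 h.

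Ccnd1, the cyclin that growth signals raise first, was high in the late sections and varied widely. Its level was 13.2, 18.9 and 26.0 CPM in the 3 uninjured sections, 48.4 and 20.2 CPM in 24 h sections A and B, 22.9 and 32.0 CPM in 36 h sections A and B, and 48.3, 97.8, 61.4 and 75.5 CPM in 48 h sections A to D. Every 48 h section lay above every 0 h section, whereas 24 h section B and 36 h section A fell inside the 0 h range. The log2 fold change was 1.87 ± 0.36 (SE) at 48 h (3.66-fold, adjusted p = 0.00220, n = 4 against 3), and missed the threshold at 24 h (0.83 ± 0.40, adjusted p = 0.121, n = 2 against 3) and at 36 h (0.51 ± 0.40, adjusted p = 0.366). The 24 h value rested on section A, since it was 0.07 without that section (adjusted p = 0.926) and 1.32 without section B (adjusted p = 0.0351).

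Ccnd2 and Ccnd3, the other D-type cyclins, did not follow Ccnd1. Ccnd2 was at 5.57, 7.36 and 7.91 CPM at 0 h, 9.25 and 10.98 CPM at 24 h, 5.505 and 8.87 CPM at 36 h, and 5.18, 4.61, 4.50 and 6.08 CPM at 48 h. Its 24 h sections lay above all 0 h sections, as did those of 37% of all genes tested, and only 48 h section D reached into the 0 h range. Neither value passed the test, with log2 fold changes of 0.54 ± 0.22 at 24 h (adjusted p = 0.0721) and -0.44 ± 0.19 at 48 h (adjusted p = 0.0757). In fits of only the groups compared both did, with 0.51 (adjusted p = 0.0406) and -0.44 (adjusted p = 0.0410). Total-count scaling made the 24 h value 0.87 (adjusted p = 0.00574) and reversed that of 48 h (0.081, adjusted p = 0.702). Ccnd3 was nearly level, at 32.7 ± 0.116 CPM (SD, n = 3) at 0 h, 28.8 ± 1.496 (n = 2) at 24 h, 31.2 ± 8.001 (n = 2) at 36 h and 33.6 ± 3.54 (n = 4) at 48 h. The 48 h log2 fold change of Ccnd3 was 0.04 ± 0.13 (adjusted p = 0.817).

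Cdk4, a catalytic partner of the D-type cyclins, rose early and stayed up. It measured 40.1, 39.5 and 41.4 CPM at 0 h, 81.3 and 85.7 CPM at 24 h, 80.05 and 63.7 CPM at 36 h, and 60.2, 67.2, 70.0 and 65.8 CPM at 48 h. No injured section came near the narrow 0 h range. The log2 fold changes against 0 h were 1.05 ± 0.11 at 24 h (2.07-fold, adjusted p = 9.04e-05), 0.83 ± 0.11 at 36 h (1.78-fold, adjusted p = 0.000876) and 0.71 ± 0.10 at 48 h (1.63-fold, adjusted p = 0.000287). Both 36 h sections and all 4 of the 48 h sections lay below the 24 h sections. The change from 24 to 36 h (-0.22) and that from 36 to 48 h (-0.12) did not pass, and 48 h was not tested against 24 h. The part of the 4 E-boxes of the Cdk4 promoter in these levels was not tested.

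Cdk6, the other partner of the D-type cyclins, first passed the test at 36 h. Its level was 10.5, 12.4 and 11.6 CPM at 0 h, 12.8 and 12.9 CPM at 24 h, 14.8 and 20.004 CPM at 36 h, and 20.5, 19.1, 19.6 and 15.04 CPM at 48 h. All injured sections lay above the 0 h sections, the 24 h ones by a small margin and as in 37% of all genes tested. The log2 fold change of 0.16 at 24 h missed the threshold (adjusted p = 0.454), whereas 0.60 ± 0.16 at 36 h (1.51-fold, adjusted p = 0.0177) and 0.69 ± 0.13 at 48 h passed (1.61-fold, adjusted p = 0.00206). The 36 h call was lost without 0 h section 2 (0.53, adjusted p = 0.0616) or 36 h section B (0.37, adjusted p = 0.160).

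Ccne1, which activates CDK2 at the end of G1, showed the largest change of the 10 genes at each injured time. It was at 0.484, 0.534 and 0.904 CPM at 0 h, 3.44 and 3.25 CPM at 24 h, 3.80 and 4.85 CPM at 36 h, and 4.76, 6.76, 7.02 and 6.88 CPM at 48 h. The injured sections stood clear of the uninjured ones, and section A was the lowest of the 48 h sections. Its log2 fold change was 2.41 ± 0.27 at 24 h (5.32-fold, adjusted p = 0.000114), 2.78 ± 0.27 at 36 h (6.86-fold, adjusted p = 0.000237) and 3.33 ± 0.25 at 48 h (10.1-fold, adjusted p = 1.81e-05). At 0 h the gene held as few as 22 UMIs in a section, so its folds rest on a small base.

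Ccne2, the second E-type cyclin, passed the test from 36 h on. It measured 0.374, 0.294 and 0.339 CPM at 0 h, 0.538 and 0.510 CPM at 24 h, 0.985 and 1.54 CPM at 36 h, and 1.48, 2.44, 2.57 and 2.46 CPM at 48 h. Each injured section lay above the 0 h sections, which at 24 h held for 37% of all genes tested. The change at 24 h missed the threshold (0.65 ± 0.35, adjusted p = 0.164), and those at 36 h (1.91 ± 0.33, 3.76-fold, adjusted p = 0.00253) and 48 h (2.73 ± 0.28, 6.63-fold, adjusted p = 6.47e-05) passed. Ccne2 was the least counted gene of the 10, with 12 to 179 UMIs per section.

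Cdk2, the kinase that both E-type cyclins activate, moved little. Its level was 6.78, 7.71 and 6.24 CPM at 0 h, 5.66 and 5.42 CPM at 24 h, 8.31 and 8.65 CPM at 36 h, and 8.72, 9.92, 8.68 and 10.4 CPM at 48 h. Its sections at 24 h lay below, and those at 36 and 48 h above, the whole 0 h range. The 48 h change passed (0.45 ± 0.11, 1.36-fold, adjusted p = 0.00827), whereas 24 h (-0.32 ± 0.14, adjusted p = 0.0828) and 36 h (0.29 ± 0.13, adjusted p = 0.121) did not.

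Cdkn2c, which encodes p18, fell first and was high last. It measured 7.75, 8.10 and 6.21 CPM at 0 h, 4.06 and 2.42 CPM at 24 h, 6.34 and 7.33 CPM at 36 h, and 7.69, 11.7, 13.8 and 14.3 CPM at 48 h. Both 24 h sections lay below all 0 h sections, the 36 h sections were within the 0 h range, and 48 h section A alone of its group overlapped it. The log2 fold change was -1.17 ± 0.29 at 24 h (0.445-fold, adjusted p = 0.00844), -0.11 at 36 h (adjusted p = 0.797) and 0.69 ± 0.23 at 48 h (1.61-fold, adjusted p = 0.0309). The fall was lost without 24 h section B (-0.86, adjusted p = 0.0794). The 48 h rise was lost without any 1 of the 0 h sections (section 2, 0.72, adjusted p = 0.0719; section 3, 0.76, adjusted p = 0.0602; section 4, 0.57, adjusted p = 0.117) or without 48 h section B (0.69, adjusted p = 0.0539), C (0.61, adjusted p = 0.0766) or D (0.58, adjusted p = 0.0731).

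Cdkn1b, which encodes p27, was the steadiest of the inhibitors. Its level was 6.58, 6.17 and 4.58 CPM at 0 h, 4.19 and 6.60 CPM at 24 h, 6.63 and 8.59 CPM at 36 h, and 7.14, 5.19, 5.09 and 5.996 CPM at 48 h. The 24 and 48 h sections overlapped those of 0 h, and the 36 h sections lay just above them. No comparison passed, with a log2 fold change of 0.40 ± 0.24 at 36 h (adjusted p = 0.226) and 0.02 ± 0.20 at 48 h (adjusted p = 0.949, 95% interval -0.37 to 0.41).

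**Figure D2:**
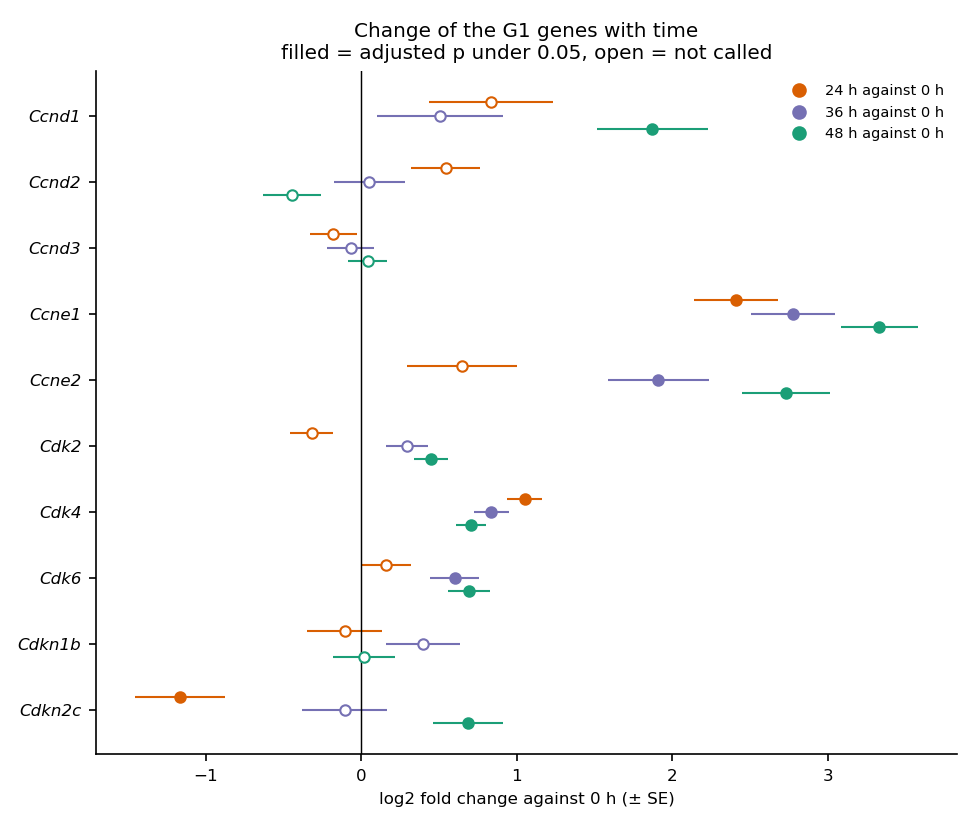
Log2 fold change against 0 h (horizontal axis) of the 10 G1 genes at 24, 36 and 48 h, with bars for the SE and filled points for an adjusted p under 0.05. The E-type cyclins and Cdk4 stand to the right of 0 at the later times, Ccnd1 separates at 48 h with 1.87, and Ccnd2, Ccnd3 and Cdkn1b are filled at none of the times.

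Successive injured times were compared next. From 24 to 36 h, 3 of the 10 genes rose, Ccne2 (1.26 ± 0.36, adjusted p = 0.0379), Cdk2 (0.61 ± 0.15, adjusted p = 0.0236) and Cdkn2c (1.06 ± 0.31, adjusted p = 0.0441), against 15.6% of all genes (7.04% higher). For all 3 the 36 h sections lay above the 24 h sections, but with 2 sections per group each call was lost without 24 h section A (adjusted p = 0.0624 to 0.147), 24 h section B (adjusted p = 0.0944 to 0.200) or 36 h section B (adjusted p = 0.0600 to 0.175), and in a fit of these 4 sections alone (adjusted p = 0.185 to 0.217). The Ccne2 and Cdkn2c calls were also lost without any 1 of the 0 h sections or 48 h section B (adjusted p = 0.0525 to 0.0625), and that of Cdkn2c without 36 h section A (adjusted p = 0.0559) or 48 h section C (adjusted p = 0.0513). From 36 to 48 h none of the 10 passed with edgeR, where 3.05% of all genes did, although 5 of the 10 had an unadjusted p under 0.05. DESeq2 called Ccnd1 (1.39, adjusted p = 0.00529) and Cdkn2c (0.82, adjusted p = 0.0472) there, which in edgeR had log2 fold changes of 1.37 ± 0.41 (adjusted p = 0.0986) and 0.79 ± 0.27 (adjusted p = 0.128). All 4 of the 48 h sections lay above both 36 h sections for Ccnd1 and for Cdkn2c.

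The direction of small changes depended on the scaling. Scaling by total counts instead of TMM moved the median of all genes by 0.37, 0.49 and 0.54 on the log2 scale at 24, 36 and 48 h, and the share of calls that were higher at 48 h from 52.7% to 93.7%. The shares at 24 and 36 h went from 55.4% to 80.4% and from 57.5% to 94.1%. Under it Ccnd3 (0.57, adjusted p = 0.00202) and Cdkn1b (0.54, adjusted p = 0.0292) passed at 48 h, changes of about the size of that shift. The calls of Ccnd1, Ccne1, Ccne2, Cdk4 and Cdk6 at 48 h lay beyond it under either scaling.

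Because markers of macrophages and mesenchyme also rose, the time comparison was repeated in the spots of each section that were poorest in them. These were the lowest 1 in 4 spots by summed UMIs of 17 macrophage and mesenchymal genes, a choice made after the values of all spots were seen. At 24 h the same 3 genes passed, Ccne1 (2.68, adjusted p = 0.000740), Cdk4 (1.01, adjusted p = 8.57e-05) and Cdkn2c (-1.48, adjusted p = 0.00508), where 33.9% of genes did. At 36 h Ccne1 (3.06), Ccne2 (2.24) and Cdk4 (0.67) passed and Cdk6 did not (0.29, adjusted p = 0.238), against 16.3% of genes. At 48 h Ccnd1 (1.93, adjusted p = 0.0168), Ccne1 (3.52), Ccne2 (2.47), Cdk4 (0.45) and Cdk6 (0.46) remained higher, against 22.7% of genes, and Ccnd2 was lower (-0.80, adjusted p = 0.0205). Cdk2 (0.19, adjusted p = 0.465) and Cdkn2c (0.15, adjusted p = 0.694) no longer passed there. Between successive injured times none of the 10 passed in these spots with edgeR. From 24 to 36 h 3 of them had an unadjusted p under 0.05, where 12.6% of genes passed, and from 36 to 48 h 2 did, where 1.03% passed. Ccnd1 in these spots measured 11.9, 15.6 and 20.02 CPM at 0 h and 35.9, 91.3, 49.2 and 65.3 CPM at 48 h, again without overlap.

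**Figure D3:**
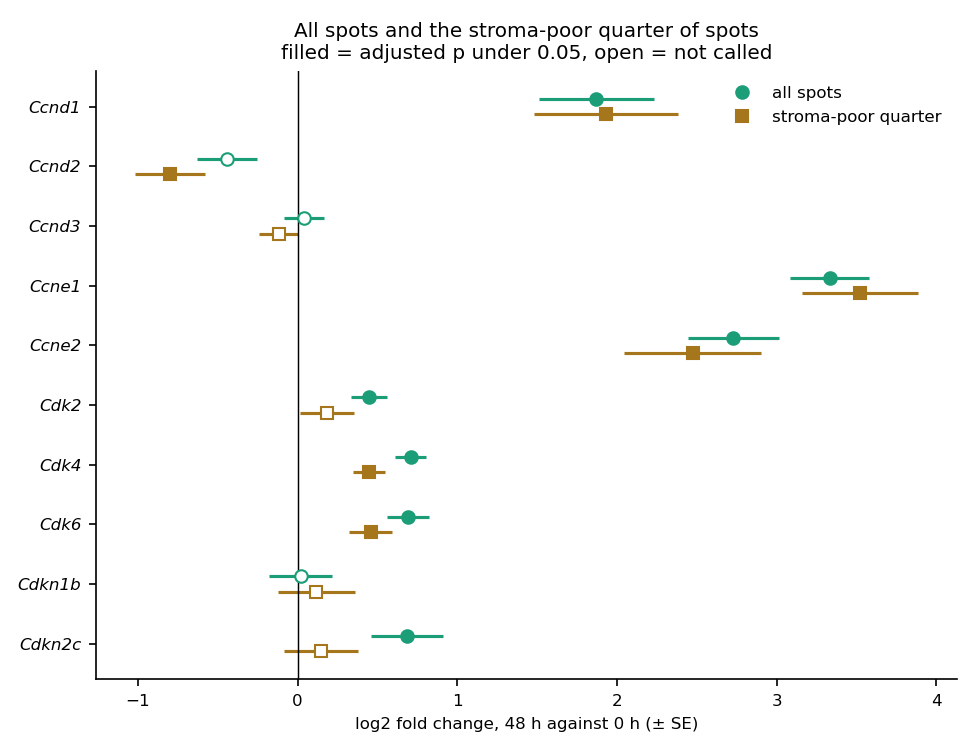
Log2 fold change at 48 h against 0 h of each G1 gene in all passing spots and in the stroma-poor spots, with bars for the SE. Ccnd1, Ccne1 and Ccne2 are of similar size in both, whereas Cdkn2c goes from 0.69 to 0.15 and Cdk2 from 0.45 to 0.19.

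Spots were then compared along the lobule. The liver lobule runs from the central vein, around which APAP kills hepatocytes, to the portal tract, and spots were ranked by 12 portal minus 23 central genes that the study used, none of them a member. The highest 1 in 4 spots of each section were called portal-side and the lowest central-side. At 0 h none of the 10 genes passed with edgeR, where 16.8% of all genes did, and 3 of the 10 had an unadjusted p under 0.05. The 24 h sections had 4 lower on the portal side, against 28.3% of genes (13.5% lower), Ccnd2 (-0.91 ± 0.19, adjusted p = 0.000391), Cdk4 (-0.27 ± 0.08, adjusted p = 0.00814), Cdk6 (-0.39 ± 0.13, adjusted p = 0.0315) and Cdkn2c (-0.81 ± 0.30, adjusted p = 0.0434). Of these, Cdk6 was lost without 24 h section A (-0.21, adjusted p = 0.569) and Cdkn2c without 24 h section A (adjusted p = 0.370) or B (adjusted p = 0.147). Cdkn2c was also lost without 36 h section A (adjusted p = 0.0518) or B (adjusted p = 0.0514), or with the outer 1 in 3 spots (-0.68, adjusted p = 0.0789).

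At 36 h, 4 genes were lower on the portal side, against 20.3% of genes (8.43% lower). These were Ccnd1 (-0.59 ± 0.17, adjusted p = 0.0282), Ccne1 (-0.96 ± 0.26, adjusted p = 0.00735), Cdk4 (-0.33 ± 0.08, adjusted p = 0.00335) and Cdk6 (-0.42 ± 0.13, adjusted p = 0.0197). Leaving out 36 h section B ended the calls of Ccnd1 (adjusted p = 0.315), Ccne1 (-0.78, adjusted p = 0.180) and Cdk6 (adjusted p = 0.308), and leaving out 36 h section A ended those of Ccnd1 (adjusted p = 0.0920) and Cdk6 (adjusted p = 0.0850). The Ccnd1 call was also lost without 48 h section C (adjusted p = 0.0591) or with the outer 1 in 3 spots (-0.58, adjusted p = 0.0555).

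At 48 h, 9 of the 10 genes were lower on the portal side, against 54% of all genes in either direction and 27.2% lower. Ccnd1 measured 56.8, 107, 70.3 and 84.8 CPM in the central-side spots of sections A to D and 29.2, 78.2, 48.9 and 57.4 CPM in their portal-side spots. Ccne1 measured 5.92, 8.60, 8.53 and 8.34 CPM against 2.49, 3.28, 4.67 and 4.14 CPM. Every section thus had more Ccnd1 and Ccne1 centrally, and the same held in 4 of 4 sections for all 9 genes called. The log2 differences, portal minus central, were -0.61 ± 0.08 for Ccnd1 (adjusted p = 1.31e-05), -1.09 ± 0.13 for Ccne1 (adjusted p = 2.14e-08), -1.25 ± 0.21 for Ccne2 (adjusted p = 1.32e-05), -0.56 for Cdk2, -0.39 for Cdk4, -0.39 for Cdk6 and -0.59 for Cdkn2c. Ccnd3 (-0.27) and Ccnd2 (-0.41 ± 0.14, adjusted p = 0.0155) were the remaining calls, the latter lost without 48 h section A (-0.19, adjusted p = 0.302) or with unthinned counts (-0.35, adjusted p = 0.0502). Cdkn1b did not pass (-0.10, adjusted p = 0.479).

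The gradient was tested against that of uninjured liver in the same fit. At 48 h minus 0 h it differed for Ccne1 (-1.94, adjusted p = 0.000683), Ccnd1 (-0.73, adjusted p = 0.00410) and Cdk4 (-0.27, adjusted p = 0.0116), where 37.1% of all genes differed. The share of the G1 genes that differed lay below this. Ccnd2, Ccnd3, Ccne2, Cdk2, Cdk6 and Cdkn2c, also called along the lobule at 48 h, did not pass here. Central-side spots at 48 h also held more macrophage (1164 to 2126 against 520 to 1029 CPM) and mesenchymal UMIs (848 to 1833 against 390 to 843 CPM) than portal-side spots. At 0 h the macrophage sum was instead lower centrally (498 to 544 against 600 to 694 CPM). The part of these cells in the gradient was not tested. Glul, which marks the hepatocytes next to the central vein, ran from 398 to 449 CPM in the most central 1 in 5 spots down to 64.2 to 83.4 CPM in the most portal ones at 0 h, but was only 20.3 to 45.0 CPM in the most central ones after injury, so central-side names a rank and not intact pericentral hepatocytes.

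When each section was cut into 5 equal bins along this axis, Ccnd1 of uninjured liver was highest in the middle bin in 3 of 3 sections. From the central to the portal end it measured 7.70, 10.5, 16.1, 11.5 and 8.08 CPM in 0 h section 2, 11.2, 17.3, 19.3, 17.0 and 13.5 CPM in section 3, and 15.7, 24.0, 25.1, 21.5 and 14.6 CPM in section 4 (bin values are CPM without TMM scaling). At 48 h it instead declined from the central to the portal end, from 73.0 to 27.9 CPM in section A, 136 to 74.4 in B, 90.2 to 47.5 in C and 104 to 55.2 in D. The peak at 0 h thus lay between the zones, and at 48 h the most central bin was the higher of the ends in 4 of 4 sections.

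**Figure D4:**
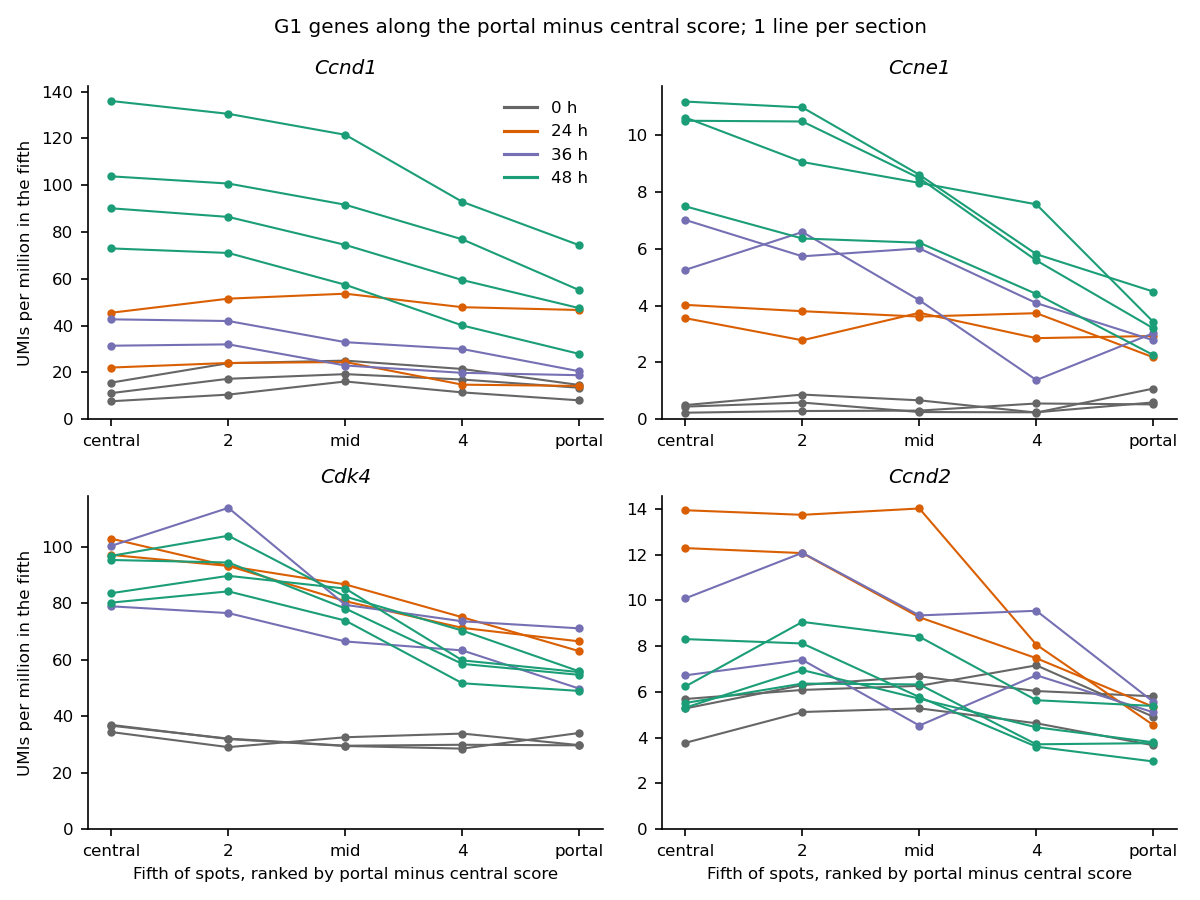
Level in CPM (linear vertical axes) of G1 genes in 5 equal bins of spots ranked from central (1) to portal (5), with 1 line per section and a colour per time point. Ccnd1 peaks in bin 3 in all 3 sections of 0 h and declines from bin 1 to bin 5 in all 4 sections of 48 h.

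The middle bin was then tested against the 2 end bins together, a comparison added after these values were seen. At 0 h Ccnd1 was higher in the middle by 0.82 ± 0.08 on the log2 scale (adjusted p = 3.89e-13) and was the only one of the 10 genes called, where 7.43% of all genes were (3.52% higher). It measured 20.8, 24.3 and 32.4 CPM in the middle against 9.78, 15.03 and 18.96 CPM at the ends in sections 2, 3 and 4, and passed without any 1 of the 11 sections. None of the 10 passed with edgeR at 24 h (2 at an unadjusted p under 0.05, background 0.972%) or 36 h (0 at an unadjusted p under 0.05, background 0.223%). At 48 h Ccnd1 (0.12 ± 0.03, adjusted p = 0.0134) and Cdk4 (0.11 ± 0.04, adjusted p = 0.0226) passed, against 13.8% of genes (6.94% higher). The former was lost without 48 h section A (adjusted p = 0.0607), B (adjusted p = 0.137) or D (adjusted p = 0.111), and the latter without A (adjusted p = 0.168) or D (adjusted p = 0.412). The mid-lobular excess of Ccnd1, injured minus uninjured, changed by -0.84 at 36 h (adjusted p = 3.74e-06), where 0.497% of genes differed, and -0.71 at 48 h (adjusted p = 5.89e-09), where 3.22% did. The 24 h value of -0.56 (adjusted p = 0.000866, background 1.14%) was lost without 24 h section A (adjusted p = 0.416). Middle spots of uninjured liver were shallower than end spots, with medians of 16845 to 21915.5 against 24872 to 35838.5 UMIs, and the part of depth in this pattern was not tested.

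The next comparison was between spots rich and poor in stroma. The highest 1 in 4 spots by the 17 macrophage and mesenchymal genes were set against the lowest, within each section. None of the 10 genes passed with edgeR at 0 h (2 at an unadjusted p under 0.05), where 4.45% of all genes did. Ccnd2 passed at every injured time, with differences of 1.27 ± 0.16 at 24 h (adjusted p = 1.19e-06), 1.38 ± 0.20 at 36 h (adjusted p = 3.56e-06) and 1.07 ± 0.12 at 48 h (adjusted p = 1.25e-08). At 24 h it was the only one of the 10 called, where 27.1% of all genes were (12.4% higher). It measured 13.9 and 20.3 CPM in the stroma-rich spots of 24 h sections A and B against 7.09 and 6.53 CPM in their stroma-poor spots. In the whole-section comparison Ccnd2 had passed at none of these times.

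At 36 h, 5 of the 10 were higher in stroma-rich spots, against 33.8% of all genes (16.8% higher). Besides Ccnd2 these were Cdk4 (0.55 ± 0.08, adjusted p = 9.81e-06), Cdk6 (0.53 ± 0.15, adjusted p = 0.00689), Ccnd3 (0.39, adjusted p = 0.00322) and Ccnd1 (0.84 ± 0.28, adjusted p = 0.0470). Without 36 h section B, Cdk6 (adjusted p = 0.555) and Ccnd3 (adjusted p = 0.243) were lost. The Ccnd1 call was lost without any 1 of 7 sections, namely 0 h sections 2, 3 and 4, 36 h sections A and B and 48 h sections C and D (adjusted p = 0.0515 to 0.407), or with the outer 1 in 3 spots (0.70, adjusted p = 0.0745).

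At 48 h, 8 of the 10 were higher in stroma-rich spots, against 70% of all genes in either direction and 37.5% higher. Cdk4 measured 84.5, 92.5, 102 and 96.0 CPM in the stroma-rich spots of sections A to D and 52.2, 56.5, 55.2 and 54.7 CPM in the stroma-poor ones, so the classes did not overlap. Its difference was 0.78 ± 0.06 (adjusted p = 1.53e-12). The other calls were Ccnd3 (0.49), Ccne1 (0.87 ± 0.14), Ccne2 (1.14 ± 0.18), Cdk2 (0.80 ± 0.11), Cdk6 (0.52 ± 0.09), Cdkn2c (0.85 ± 0.10) and Ccnd2. Ccnd1 (0.31 ± 0.15, adjusted p = 0.0875) and Cdkn1b (0.02) did not pass, though Ccnd1 did when spots were ranked on unthinned counts (0.41, adjusted p = 0.00659), with total-count scaling (0.77, adjusted p = 0.00140), and without 24 h section A (0.31, adjusted p = 0.00849), 24 h section B (0.31, adjusted p = 0.00843) or 48 h section B (0.46, adjusted p = 0.0190). Ccnd1 measured 66.5, 99.7, 70.2 and 78.8 CPM in stroma-rich and 39.3, 99.7, 53.8 and 71.1 CPM in stroma-poor spots, level in section B and higher in stroma in the other 3. Hepatocyte markers held 48760 to 61387 CPM in the stroma-rich and 120294 to 137929 CPM in the stroma-poor spots at 48 h.

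These stromal differences were larger than at 0 h for several genes. Ccnd2 differed at 24 h by 0.84 (adjusted p = 0.0200, background 6.67%), at 36 h by 0.95 (adjusted p = 0.00930, background 13.7%) and at 48 h by 0.64 (adjusted p = 0.00759, background 41.9%). Cdk4 differed at 36 h by 0.56 (adjusted p = 0.00103) and at 48 h by 0.79 (adjusted p = 8.46e-08). Cdk6 differed by 0.72 at 36 h (adjusted p = 0.0148) and 0.71 at 48 h (adjusted p = 0.000567). At 48 h Ccnd3 (0.45), Cdk2 (0.63) and Cdkn2c (1.02) also differed, and Ccnd1, Ccne1, Ccne2 and Cdkn1b did not pass.

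**Figure D5:**
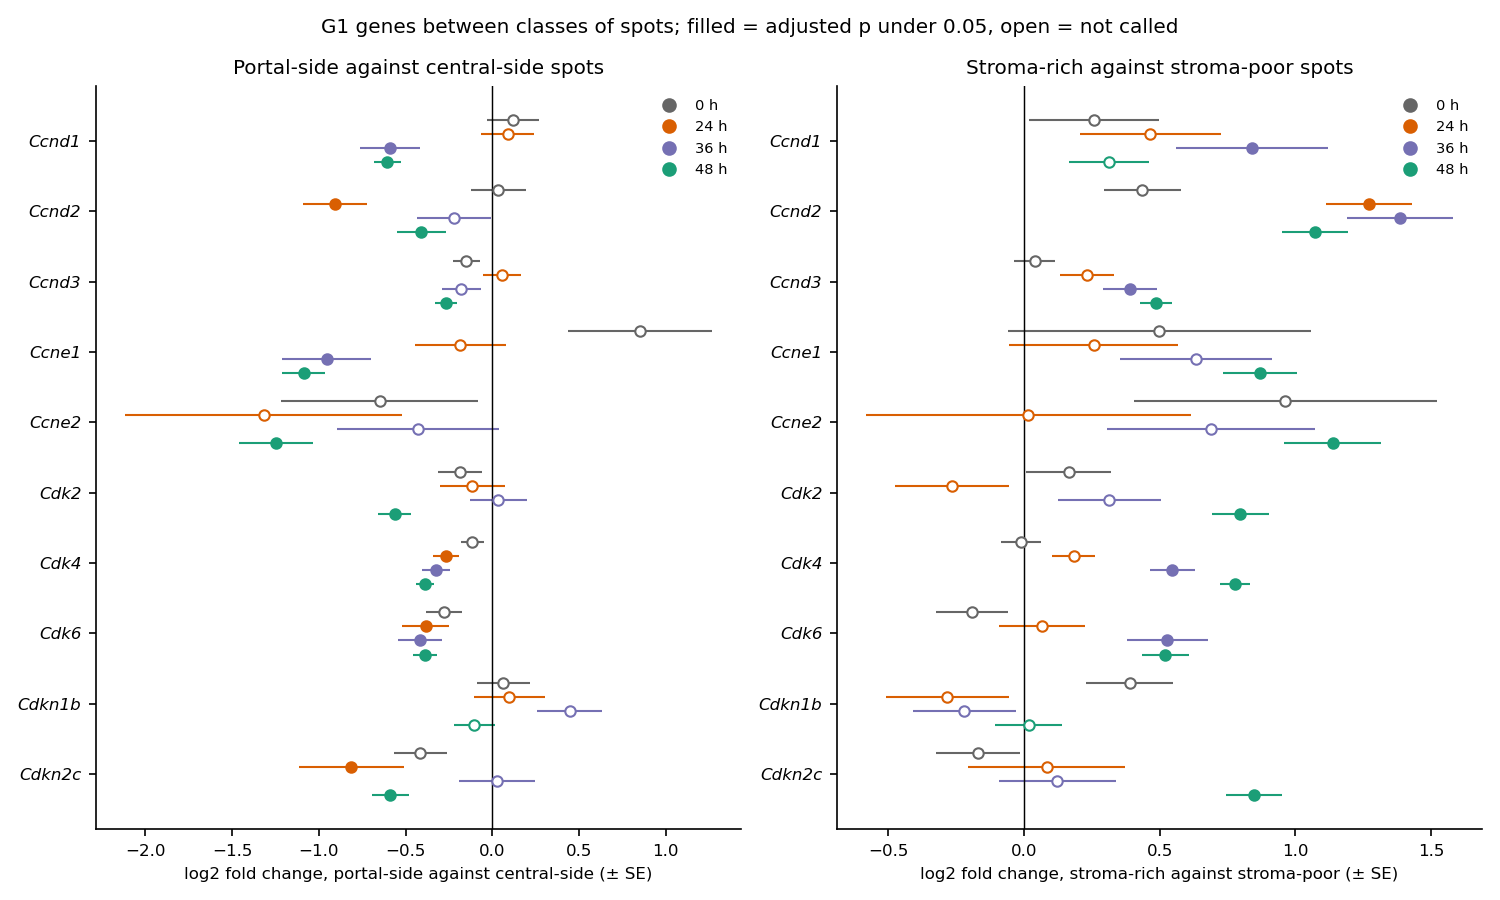
Log2 difference between spot classes within sections for each of the 10 G1 genes and each time point. The panels show portal-side minus central-side and stroma-rich minus stroma-poor, with bars for the SE, filled where the adjusted p is under 0.05. At 48 h, 9 genes are filled and below 0 in the first, 8 are filled and above 0 in the second, and Cdkn1b passes in neither.

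Spots that held transcripts of dividing cells were compared with spots that did not. Spots with at least 3 UMIs of 36 DNA replication and mitosis genes, after thinning each spot to 5000 UMIs, were called cycling and those with 0 non-cycling, at 36 and 48 h only. At 36 h, 3 of the 10 genes were higher in cycling spots, Ccnd1 (0.49, adjusted p = 0.000421), Ccnd2 (0.67) and Cdk4 (0.24), against 18.2% of all genes (8.67% higher), and all 3 were lost without 36 h section B (adjusted p = 0.240, 0.604 and 0.393). At 48 h, 9 of the 10 were higher, against 46.7% of all genes (24.4% higher). Ccne2 (1.26 ± 0.31, adjusted p = 0.000462) and Ccne1 (0.93 ± 0.18, adjusted p = 5.86e-06) had the largest differences, followed by Ccnd2 (0.73), Cdk2 (0.58), Cdk4 (0.50 ± 0.06), Ccnd3 (0.44), Cdkn2c (0.40), Ccnd1 (0.34 ± 0.06) and Cdk6 (0.32). Cdk6 was lost without 48 h section A (adjusted p = 0.0534) and Cdkn2c without 48 h section B (adjusted p = 0.0652).

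Ccne1 in cycling spots of 48 h sections A to D measured 7.27, 8.72, 9.22 and 8.31 CPM, against 3.79, 1.84, 5.35 and 6.73 CPM in non-cycling spots. The p27 gene Cdkn1b, which halts complexes of CDK2, measured 7.23, 5.92, 5.84 and 7.10 CPM in cycling and 8.65, 5.53, 6.15 and 4.49 CPM in non-cycling spots, with no common direction and a difference of -0.04 ± 0.15 (adjusted p = 0.866). Cycling spots at 48 h held 1529 to 2535 CPM of macrophage markers against 590 to 1076 CPM in non-cycling spots. The part of these cells was not tested.

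The share of spots that held a transcript rose with its level. Ccnd1 was seen in 5.44%, 8.14% and 9.91% of tissue spots at 0 h and in 23.2%, 42.4%, 28.6% and 32.3% at 48 h, each spot thinned to 5000 UMIs. Without thinning, 54.5% to 92.8% of 48 h spots held it. Off-tissue spots that held at least 5000 UMIs, thinned alike, gave close to the same shares, 5.47% to 8.28% at 0 h and 22.2% to 38.7% at 48 h. A share of spots with a UMI is therefore not read as expression in that spot. How far these spots lay from the tissue was not measured. All off-tissue spots together held 10.7% to 24.9% of the UMIs of a section.

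Genes that act with the members were read from lists of pathway genes. Of 13 RB and E2F genes, 3 rose (E2f1, E2f2 and E2f4) and 3 fell (Rb1, Rbl2 and Tfdp2) at 24 h, 4 rose (Rbl1, E2f1, E2f2 and E2f7) and 2 fell (Rbl2 and E2f5) at 36 h, and 6 rose and 2 fell at 48 h. The genes that fell at 48 h were the RB relative Rbl2 (-0.58, adjusted p = 0.000594), which is tied to quiescence, and E2f5 (-0.32, adjusted p = 0.0266), a repressor. These counts stand beside the 41.7%, 29.2% and 44.2% of all genes called at 24, 36 and 48 h, and so do those of the other lists below. The count of RB and E2F genes at 24 h was near that background. Those with the largest changes at 48 h were E2f7 (3.19 ± 0.53, adjusted p = 0.000804) and E2f2 (2.34, adjusted p = 0.000121), a repressor and an activator of the E2F family, the RB relative Rbl1 (2.03, adjusted p = 0.000147) and the activator E2f1 (2.01 ± 0.18, adjusted p = 3.54e-05). Of 14 genes for kinase activation and cyclin turnover, 5 rose at 24 h (Cdk7, Cdc25a, Wee1, Cks1b and Ambra1), 3 at 36 h (Cdk7, Cdc25a and Wee1) and 5 at 48 h (Cdk7, Cdc25a, Wee1, Skp2 and Cks1b). Ccnh, the cyclin of the CDK-activating kinase, and Skp1a, a ubiquitin ligase subunit, were the 2 that fell at each of the 3 times. The 7 of 14 called at 24 and at 48 h were near the background. Wee1, a kinase that restrains CDKs (2.31), Skp2, which targets p27 for degradation (1.41), its cofactor Cks1b (1.38) and the phosphatase Cdc25a, which activates CDK2 (1.24), had the largest changes at 48 h. The median of this list, 0.01, was that of all genes tested. With total-count scaling 10 of the RB and E2F genes and 11 of the kinase activation genes were higher at 48 h and 0 were lower, so the falls of Rbl2, E2f5, Ccnh and Skp1a held only relative to the median gene.

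Among the other CDK inhibitors, 5 of 6 genes were tested, and 2 rose at 48 h, Cdkn3 (5.14 ± 0.57) and Cdkn2d (1.45 ± 0.21), where 44.2% of all genes were called, with 0 called by edgeR at 24 and 36 h. DESeq2 also called Cdkn2b, the gene of the INK4 protein p15, at 48 h (0.91, adjusted p = 0.0484). At each of the 2 earlier times 1 gene had an unadjusted p under 0.05 and DESeq2 called 1, Cdkn1c (p57) at 24 h (-1.01, adjusted p = 0.0427) and Cdkn3 at 36 h (1.78, adjusted p = 0.0106). Cdkn3 is a phosphatase of CDKs whose transcript peaks in dividing cells, and Cdkn2d encodes the INK4 protein p19. Cdkn1a (p21) is named here after its values were seen. It measured 7.33, 16.3 and 36.9 CPM at 0 h, 36.3 and 59.7 CPM at 24 h, 9.68 and 57.5 CPM at 36 h and 27.1, 16.9, 28.7 and 21.6 CPM at 48 h. The sections of 0 h and of 36 h spread widely and overlapped those of every other time, whereas the 24 h sections lay above all 48 h sections. No comparison passed (24 h against 0 h, 1.26 ± 0.71, adjusted p = 0.186).

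Of 8 upstream transcription factors, 2 rose (Myc and Mycn) and 1 fell (Foxo3) at 24 h, 2 rose (Myc and Foxm1) and 1 fell (Ctnnb1) at 36 h, and 3 rose and 1 fell at 48 h, near the background at 24 and 48 h. Myc was higher at all 3 times (1.31, 1.34 and 1.57), and a link from it to the promoters shown above was not tested. Foxm1 (4.39) and Mycn (1.22) rose at 48 h, and Foxo3, which drives Cdkn1b, fell (-0.95, and -0.42 with total-count scaling, adjusted p = 0.00868). Downstream, 8 of 23 DNA replication genes rose and 1 fell at 24 h, which was near the background of 41.7%, 19 rose at 36 h and 22 rose at 48 h, with a median of 2.64 at 48 h. None of 13 mitosis genes passed at 24 h with edgeR or DESeq2, and 0 had an unadjusted p under 0.05, whereas 9 rose at 36 h and 13 at 48 h, with a median of 4.91. The S-phase cyclin Ccna2 was at -0.00 at 24 h (adjusted p = 0.997) and 4.57 at 48 h. The helicase subunit Mcm5 already passed at 24 h (1.15, adjusted p = 0.0229) and reached 3.34 at 48 h, where the clamp Pcna was at 1.23, the proliferation marker Mki67 at 4.75 and the topoisomerase Top2a at 4.83. These lists were chosen with earlier results of these data known.

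The genes whose levels were most like those of each member over the 11 sections are given as a description, by Pearson's r of log2 CPM among tested genes with a mean of at least 5 CPM. The sections share 4 livers and differ in depth and cell content. For Ccnd1 they were Lect2 (r = 0.927), Tubgcp2 and Lcp2, for Ccnd2 Robo4 (0.948), Rpl13a and Camsap2, and for Ccnd3 C1qa (0.909), Cd38 and Slc9a3r2. The lists for the E-type cyclins were Gpnmb (0.986), Rgs19 and Tmsb10 for Ccne1 and Col1a1 (0.992), Mcm3 and Topbp1 for Ccne2. Those of the kinases were Dek (0.966), Gmnn and Hmgb2 for Cdk2, Pacs2 (0.980), Isyna1 and Klc1 for Cdk4, and Mfge8 (0.959) and Plat for Cdk6. Cdkn2c was nearest to Rfc5 (0.974), Impa2 and Hpse, and Cdkn1b to Tbl1xr1 (0.857), Cyp2j9 and Asxl2.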

How the data were processed

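Mouse liver sections of 10 µm were hybridised to Visium arrays with 4992 spots. The deposited values are UMI counts per gene and spot, made by the authors with Space Ranger 1.0.0 on mm10 and analysed by them with Seurat 4.1.1. Their manual removal of isolated spots was not repeated here. Spots under the tissue with at least 800 genes and at most 20% mitochondrial counts were summed per section, or per section and spot class. All sections share the same 4992 array barcodes, which name array positions and not cells, and no 2 sections held the same counts. A spot holds several cells, so doublets were not called.

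Sums were compared with edgeR 4.0.16 in R 4.3.3 (quasi-likelihood test, two-sided, TMM scaling), with all 11 sections in 1 fit for time and with section as a block for spot classes. The filter on low counts left 14821 genes for time. P-values were adjusted over all genes tested by the Benjamini-Hochberg method and called under 0.05. SE are those of the log2 fold change. DESeq2 1.42.0, other scalings, filters and spot classes, and leaving out each section were the alternatives. Before spots were ranked, each was thinned to 5000 UMIs, which left out 1 to 260 shallower spots per section.

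On counts simulated for 48 h against 0 h over 14821 genes, edgeR recovered 59 of 100 genes changed 2-fold and 87 of 100 changed 4-fold, and 6.41% of its calls were false. For 36 h against 0 h it recovered 47 and 82 of 100, with 5.84% false. In the spot classes at 48 h the false share was 8.78% for zone, 5.67% for stroma, 7% for cycling and 5.91% for the middle bin. These simulations changed 100 genes at each fold, whereas 44.2% of all genes were called at 48 h against 0 h in the sections. The false shares are therefore those of simulated counts and do not measure the error of the calls reported here. Differences between mice are not covered either, since sections of the same liver cannot show them.

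The members and gene lists were chosen with earlier results of these data known. Of the pathway lists, up to 4 called genes with the largest change at 48 h were named. Among the genes most like a member, 1 is not reported here. The zone lists are those of the study, which were chosen on data that include these sections. Intervals on shares of spots cover counting error only. Groups were taken from the labels, which give neither mouse, batch nor age.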

Additional observations from a re-analysis of the deposited data

Results flagged for a closer look

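At 48 h, section A had the lowest level of both E-type cyclins, at 4.76 CPM for Ccne1 and 1.48 CPM for Ccne2, and stood apart from the other 3 sections of that time, in which Ccne1 was at 6.76 to 7.02 CPM and Ccne2 at 2.44 to 2.57 CPM. The gap was larger than Dixon's critical value for 4 samples allows, a limit that chance passes in about 1 of 20 groups. Section A also held the lowest summed levels at 48 h of mitosis (89.1 CPM), DNA replication (367 CPM), mesenchymal (708 CPM) and macrophage genes (980 CPM). The cause was not tested.

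The lobular gradient differed between injured and uninjured liver for 5 values (log2, portal minus central, injured minus uninjured). These were Ccnd2 at 24 h (-0.94, adjusted p = 0.00614), Ccne1 at 36 h (-1.81, adjusted p = 0.00958), and Ccnd1 (-0.73, adjusted p = 0.00410), Ccne1 (-1.94, adjusted p = 0.000683) and Cdk4 (-0.27, adjusted p = 0.0116) at 48 h. Of all genes, 19.3%, 16.6% and 37.1% differed at 24, 36 and 48 h. The first value was lost without 24 h section B (adjusted p = 0.117), and the Ccne1 value at 36 h without 0 h section 4 (adjusted p = 0.0537) or 36 h section B (adjusted p = 0.0595). At each time the share of the G1 genes that differed lay below that of all genes. In all 5 values the injured liver had relatively more transcript on the central side.

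The difference between stroma-rich and stroma-poor spots was larger after injury for 10 values. Ccnd2 differed by 0.84 at 24 h (adjusted p = 0.0200), 0.95 at 36 h (adjusted p = 0.00930) and 0.64 at 48 h (adjusted p = 0.00759). Cdk4 differed by 0.56 at 36 h (adjusted p = 0.00103) and 0.79 at 48 h (adjusted p = 8.46e-08), and Cdk6 by 0.72 at 36 h (adjusted p = 0.0148) and 0.71 at 48 h (adjusted p = 0.000567). At 48 h Ccnd3 differed by 0.45 (adjusted p = 0.000484), Cdk2 by 0.63 (adjusted p = 0.00838) and Cdkn2c by 1.02 (adjusted p = 7.12e-05). The Ccnd2 value at 24 h was lost without 0 h section 3 (adjusted p = 0.0735) or 4 (adjusted p = 0.0595) or 24 h section B (adjusted p = 0.400), and that at 36 h without 36 h section B (adjusted p = 0.158). The Cdk6 value at 36 h was lost without 0 h section 4 (adjusted p = 0.0730) or 36 h section B (adjusted p = 0.400), and the Cdk2 value without 0 h section 3 (adjusted p = 0.136).

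Spots outside the tissue, pooled per section whatever their distance from it, held G1 transcripts. For the genes below their levels, like those of tissue spots, were higher at 48 h than at 0 h. Their means over the 4 sections of 48 h, in CPM without TMM scaling, were 80.1 for Ccnd1 (13.6 at 0 h), 40.4 for Ccnd3 (27.3 at 0 h), 7.40 for Ccne1 (0.488 at 0 h), 2.85 for Ccne2 (0.269 at 0 h), 9.83 for Cdk2 (4.46 at 0 h), 63.8 for Cdk4 (28.0 at 0 h), 20.7 for Cdk6 (9.09 at 0 h), 5.70 for Cdkn1b (4.18 at 0 h) and 13.2 for Cdkn2c (4.52 at 0 h).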

How the results depend on the processing

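Of the log2 fold changes recomputed without leaving out a section, 477 kept their direction and side of the threshold, 34 newly passed, 16 no longer passed and 12 reversed. Counts of members called that moved by over 1.5 times were, with total-count scaling, 7 at 24 h against 0 h, 2 for zone at 0 h, 3 and 8 for stroma at 24 and 36 h and 5 for cycling at 36 h. They were 0 at 36 h against 24 h with the groups compared alone, with the replicate block and in stroma-poor spots, 2 with DESeq2 at 48 h against 36 h, 1 with the outer 1 in 3 spots for zone at 0 h, 2 and 2 with unthinned counts for stroma at 0 and 24 h, and 5 with at least 5 UMIs for cycling at 36 h. Whether section letters pair samples was not settled. The r of same-letter deviations from the mean of their time ran from -0.214 to 0.253. With 2 sections at 24 and at 36 h, the deviations of A and B mirror each other, so this r cannot decide it. The replicate block, which could be fitted among injured sections, gave 82 genes at 36 h against 24 h (2315 without it, 1 with these groups alone). At 48 h against 36 h it gave 0 (452 without it, 1224 with DESeq2, 0 with these groups alone).

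Directions reversed with total-count scaling for Ccnd3 (0.14), Cdk2 (0.0048) and Cdkn1b (0.21) at 24 h, Ccnd3 (0.36) and Cdkn2c (0.33) at 36 h and Ccnd2 (0.081) at 48 h, and in stroma-poor spots for Cdk2 (0.029) and Cdkn1b (0.017) at 24 h, Ccnd2 at 36 h (-0.58), Ccnd3 at 48 h (-0.12) and Cdk2 from 36 to 48 h (-0.13). With unthinned counts Cdkn1b for stroma at 48 h was -0.025. None of these had passed the test.

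Leaving out 1 section at a time, counts ranged from 3 to 4 at 24 h, 3 to 4 at 36 h and 6 to 8 at 48 h against 0 h, 0 to 3 at 36 h against 24 h and 0 to 1 at 48 h against 36 h. They ranged from 0 to 1, 2 to 4, 1 to 4 and 8 to 9 for zone at 0, 24, 36 and 48 h, from 0 to 0, 1 to 2, 2 to 5 and 8 to 9 for stroma, from 1 to 1, 0 to 0, 0 to 0 and 0 to 2 for the middle bin, and from 0 to 3 and 8 to 9 for cycling at 36 and 48 h. Values that changed sign ranged from -0.47 to 0.19 (Cdkn1b, 24 h), -0.33 to 0.35 (Ccnd2, 36 h), -0.36 to 0.17 (Ccnd3, 36 h), -0.032 to 0.087 (Ccnd3, 48 h), -0.13 to 0.12 (Cdkn1b, 48 h), -0.82 to 0.44 (Ccnd1, 36 h against 24 h) and -0.14 to 0.35 (Ccnd3, 36 h against 24 h). From 36 to 48 h they ranged from -0.13 to 0.39 for Ccnd3, -0.29 to 0.048 for Cdk4 and -0.11 to 0.32 for Cdk6, and for Cdkn1b in stroma at 48 h from -0.070 to 0.13. The causes were not tested. With unthinned counts no cycling comparison was made, since the 48 h sections had under 50 spots at 0 UMIs and the 36 h sections were not fitted alone. Ccne1 and Ccne2 rest on low counts at 0 h, with 22 and 12 UMIs in their lowest sections.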
